A study of Mus musculus with 84 samples.

Results

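The comparison is between granulocyte-monocyte progenitors (GMP) of 10 week old mice labelled MLL-ENL (x2) and GMP of control mice from the same set of libraries. It used 7 of the 84 libraries of the series, chosen by their titles: animals 5293, 5897 and 5900 for MLL-ENL (x2), and animals 4892, 4894, 5898 and 5899 for the controls. All 41388 mouse genes of the count table were considered, and 14260 passed the filter on low counts and were tested. The cells came from bone marrow, and both groups carry the labels for no doxycycline and for fetal induction. The controls are labelled wild type. The other group has the genotype MLL-ENL, in which human KMT2A is joined to human MLLT1, in a system that the labels tie to doxycycline. The labels do not say what (x2) stands for or what drives expression of the transgene in these cells. The same 7 animals also gave HPC, labelled as committed hematopoietic progenitor cells, and pGM, labelled as precursors of the GMP stage (pre-granulocyte-monocyte progenitor), so the set holds 21 libraries. A further 8 libraries of 10 week GMP, from MLL-ENL and control animals of another set, served as a comparison in other mice.

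GMP are bone marrow progenitors that give rise to neutrophils and monocytes, and they carry large amounts of transcripts for the proteases and peroxidase of primary granules. MLL fusion proteins bind chromatin at genes of the stem cell program, with the Hoxa cluster, Meis1 and Mecom as the best known targets, and recruit factors that promote transcript elongation. In mouse models of leukemia, GMP are among the cells that such fusions can transform.

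The label GMP was checked against marker genes, in CPM, the counts of a gene relative to its library total, scaled by the trimmed mean of M values (TMM; the unit of all levels below unless another is named). In control libraries Elane, which encodes neutrophil elastase, ran from 25829 to 39283 CPM in GMP against 356 to 563 CPM in HPC. Ly6a, which encodes the Sca-1 antigen that GMP lack, ran from 1.98 to 3.51 CPM in GMP against 252 to 315 CPM in HPC. Of the other listed GMP markers, Mpo, Prtn3, Ctsg, Ms4a3, Cebpa, Cebpe, Csf1r and Fcgr3 were higher in control GMP than in control HPC. Kit (238 to 375 against 398 to 746 CPM) and Cd34 (588 to 661 against 1425 to 1827 CPM) were lower. The HPC markers Hlf, Mecom, Flt3 and Meis1 were lower. Csf3r overlapped (161 to 194 against 140 to 209 CPM), as did the HPC marker Cd48 (367 to 384 against 225 to 390 CPM). These were named after their values were seen. Of 18 T and NK cell genes, Cd3e and Cd8a were at 0 in all 7 GMP libraries and 16 had counts in at least 1. Among these, Cd3d was at 0.265 to 1.54 CPM in controls and at 0 to 0.414 CPM in MLL-ENL (x2), and the summed level of the list was 2370 to 2970 CPM and 2326 to 3863 CPM, of which Nkg7 made up 2234 to 2916 CPM and 2304 to 3846 CPM. The 7 libraries held 15.12 to 21.14 M counts.

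Library 5900 stood apart from the other 6. On the first principal component of log2 CPM, which held 32.3% of the variance, it lay at 78.9 and the others between -21.7 and -6.6. Its summed level of 22 DNA replication genes was 4596 CPM, against 6701 to 7661 CPM in the other libraries. Controls also fell into pairs: 4892 and 4894 lay at -27.4 and -10 on the third component (17.8% of the variance), and 5898 and 5899 at 34.1 and 37.9. On the second component (21.6%), 5293 and 5897 lay at 37.6 and 37.5. There 5900 lay at -7.6, below controls 5898 and 5899 at -4.9 and 1.8. None of these components separated the genotypes. Ltf, which encodes lactoferrin of secondary granules, stood at 166, 172, 0.511 and 1.72 CPM in controls 4892, 4894, 5898 and 5899. It was 1.63, 5.86 and 3.53 CPM in MLL-ENL (x2) animals 5293, 5897 and 5900, and this gene was chosen after its values were seen. The female-specific transcript Xist and the Y-linked gene Ddx3y showed 1 male (4892) and 3 females among the controls, and 2 males (5293 and 5897) and 1 female (5900) among the MLL-ENL (x2) animals. Each GMP library is 1 animal by its number. The spread was estimated over all 21 libraries, 3 to an animal, which the fit treats as independent, and p-values measure the spread between these libraries.

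Reads on the human transgene separated the groups. In CPM of mouse counts without TMM scaling, the transgene stood at 4.445, 4.818 and 11.375 CPM in MLL-ENL (x2) animals 5293, 5897 and 5900, from 74, 94 and 172 counts. Controls 4892, 4894, 5898 and 5899 stood at 0.226, 0.047, 0 and 0.113 CPM, from 4, 1, 0 and 2 counts. All MLL-ENL (x2) libraries lay above all controls, and 5900 was highest. The means were 6.88 ± 3.9 CPM (SD, n = 3) and 0.0966 ± 0.098 CPM (SD, n = 4), and the 2-sided exact permutation p was 0.057, the smallest that 3 against 4 allows. In MLL-ENL GMP of the other set the transgene stood at 1.151, 0.442, 4.331 and 1.165 CPM, a mean of 1.77 ± 1.74 CPM (SD, n = 4). The MLL-ENL (x2) mean was 3.88 times this, with an exact permutation p of 0.057, again the smallest possible. These libraries belong to different sets, so set and genotype cannot be told apart in this ratio. The highest MLL-ENL library, at 4.331 CPM, lay just under the lowest MLL-ENL (x2) library. The mouse genes whose human counterparts are fused did not pass the test: Kmt2a had a log2 fold change of 0.12 ± 0.26 (SE) and Mllt1 of 0.24 ± 0.27, both with an adjusted p of 1 by the quasi-likelihood F test of edgeR.

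Between the genotypes, 128 of the 14260 genes in GMP (0.898%) differed at an adjusted p under 0.05 by that test, 38 upward (0.266%) and 90 downward (0.631%). The median log2 fold change over all tested genes was 0.01. Among the genes that rose the median was 2.41, and among those that fell it was -1.71. In 123 of the 128 genes the libraries of the groups did not overlap, whereas 6.94% of all tested genes showed no overlap, 3.16% with the MLL-ENL (x2) libraries higher and 3.79% with them lower. In a fit of the 7 GMP libraries alone, with 1 library to an animal, 44 genes passed, 33 of them among the 128. The number of calls also rested on few animals. Leaving out 1 animal gave 55 calls without 4894, 62 without 5897, 73 without 4892 and 82 without 5293, against 97 without 5899, 105 without 5900 and 113 without 5898. A total of 38 genes passed in all 7 of these fits. Within animals 5897, 5898, 5899 and 5900 alone, 2 of each genotype, 11 genes passed, 9 of them among the 128. They included Zer1, Cdk19 and Igf2bp3, which rose, and C1qtnf6, Ppic, Scarf1, Tmem98 and Clnk, which fell. With sex as a covariate 171 genes passed, 125 of them among the 128.

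**Figure D1:**
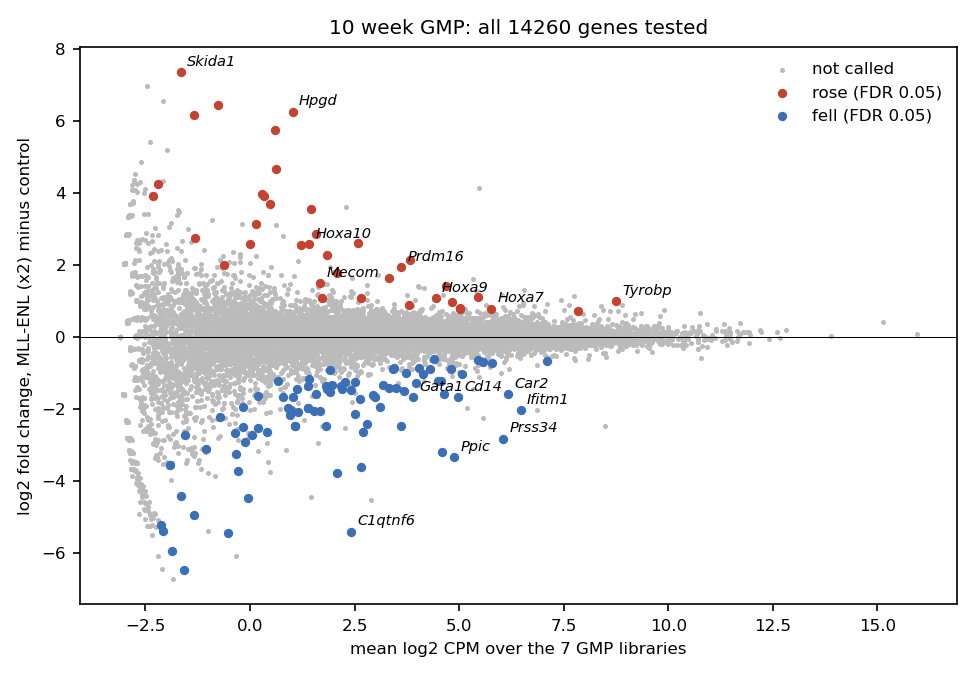
Each point is 1 of the 14260 genes tested; the x axis is its mean log2 CPM over the 7 GMP libraries and the y axis its log2 fold change, MLL-ENL (x2) minus control. Red points are the 38 genes that rose and blue points the 90 that fell; fitted values of genes at 0 in 1 group, such as Skida1, depend on the prior count and are not bounds.

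Among the 24 listed targets of MLL fusions, 5 of the 20 tested rose (0.266% of all tested genes did) and none fell (0.631% did). The list's median log2 fold change was 0.54. Those 5 were Hoxa7, Hoxa9, Hoxa10, Mecom and Skida1, and all 5 passed without each of the 7 animals in turn. None of the 5 passed within animals 5897 to 5900 alone, where the list's median was 0.58. In the fit of the 7 GMP libraries alone 2 of the 16 tested members rose, Hoxa9 and Hoxa10 (adjusted p = 0.04 and 0.014), and the median was 0.16, while Hoxa7 and Mecom did not pass (0.069 and 0.075). With the controls of both sets pooled, 3 of 16 rose and 1 fell. A listed target also fell, beside the 5 that rose, without 5898, with no filter, with DESeq2 and with sex as a covariate. Because Skida1 is the highest value of the list, the median is the same with Skida1 at its lower bound.

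Hoxa10 encodes a homeodomain factor of the 5′ part of the Hoxa cluster. It stood at 0.861, 1.42, 0.767 and 1.79 CPM in controls 4892, 4894, 5898 and 5899 and at 8.51, 5.39 and 7.94 CPM in MLL-ENL (x2) 5293, 5897 and 5900. The lowest MLL-ENL (x2) library was well above the highest control, and the log2 fold change was 2.58 ± 0.26 (SE; adjusted p = 5.8e-06). Its neighbor Hoxa9, the Hoxa gene most closely tied to leukemia, stood at 13.3, 17.6, 15.7 and 16.5 CPM in the controls and at 37.2, 26.8 and 35.6 CPM in the MLL-ENL (x2) libraries. The groups did not overlap, and the log2 fold change was 1.07 ± 0.19 (adjusted p = 0.0045). Hoxa7 stood at 45.7, 49.8, 35.9 and 42.5 CPM against 74.1, 69.7 and 80.8 CPM, again without overlap (log2 fold change 0.78 ± 0.13, adjusted p = 0.0021). The fold difference was thus larger in Hoxa10, the lowest of these genes in control GMP, than in Hoxa9 and Hoxa7. Hoxa5 stood at 0.831 to 2.03 CPM in controls and 2.13 to 4.56 CPM in MLL-ENL (x2) libraries and did not pass (log2 fold change 1.19 ± 0.35, adjusted p = 0.16). Hoxa2, Hoxa3 and Hoxa4 were each under 1 CPM in every library and did not pass. Hoxa6 was under 1 CPM and not tested, and Hoxa11 and Hoxa13 were at 0 in all 7 libraries. In the annotation, Hoxa3 overlaps Hoxa4, Hoxa5 and Hoxa6, and Hoxa7 lies opposite the antisense gene Hoxaas3. No source used here gives the strand setting of the counting, so the reads of these genes cannot be told apart from those of their partners. The same limit holds for other named genes that overlap genes on the opposite strand, among them Mecom, Prdm16, Igf2bp3, Ednra, Cdk19 and Nrg4.

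Mecom, whose product EVI1 is a zinc finger factor, is active in stem cells. It stood at 2.22, 2.44, 1.92 and 1.45 CPM in the controls and at 4.61, 5.33 and 6.98 CPM in MLL-ENL (x2) animals 5293, 5897 and 5900. All 3 lay above the highest control (log2 fold change 1.48 ± 0.26, adjusted p = 0.0045). Skida1, which encodes a protein with a SKI/DACH domain, had 0 counts in all 4 controls and 51 counts in the MLL-ENL (x2) group, at 1.77, 0.592 and 1.18 CPM. Against a floor of 3 counts over the control group this was at least 24.7-fold higher (adjusted p = 3.9e-05). Meis1, the HOX cofactor, was at 69.5, 67.3, 52.7 and 57.0 CPM in the controls and 92.8, 61.1 and 36.7 CPM in MLL-ENL (x2). Its highest and lowest library were thus both MLL-ENL (x2), and it did not pass the test (log2 fold change 0.04 ± 0.23, adjusted p = 1). The lowest value of the list was that of Zfp521, a zinc finger factor of progenitors, which was chosen after its values were seen. It stood at 7.57, 7.67, 5.43 and 5.82 CPM in the controls and at 2.62, 3.02 and 2.13 CPM in MLL-ENL (x2), without overlap, and did not pass (log2 fold change -1.35 ± 0.35, adjusted p = 0.089). Other listed targets that did not pass included Runx2 (log2 fold change 0.38, adjusted p = 0.65) and Cdk6, Jmjd1c, Mef2c, Bcl2, Flt3 and Myb, with log2 fold changes from -0.85 to 0.25.

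**Figure D2:**
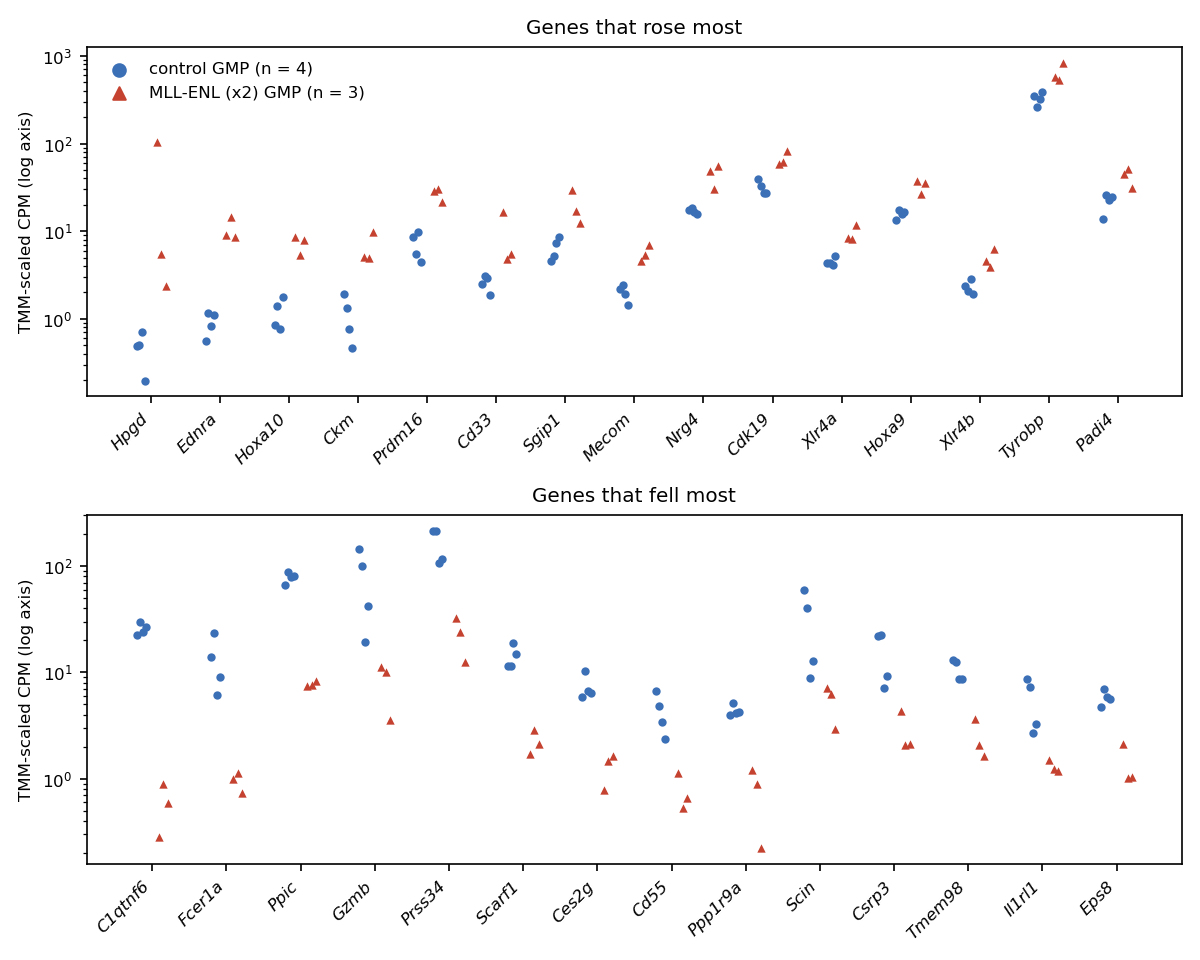
Level of each gene (y axis, TMM-scaled CPM, log axis) in each library, for genes that rose or fell most among called genes with a mean log2 CPM of at least 1, no overlap and no predicted gene model. Blue circles are the 4 controls in the order 4892, 4894, 5898, 5899 and red triangles the 3 MLL-ENL (x2) libraries in the order 5293, 5897, 5900; Hpgd spans 2.35 to 103 CPM among the MLL-ENL (x2) libraries, whereas the Ppic values lie between 7.45 and 8.31 CPM.

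Beyond the Hoxa genes, the rises included a relative of Mecom, a fetal RNA-binding protein and several receptors. Prdm16, a PR domain factor related to Mecom, stood at 8.49, 5.54, 9.85 and 4.5 CPM in the controls and at 29.1, 30.2 and 21.5 CPM in MLL-ENL (x2). The lowest of the 3 was over the highest control (log2 fold change 1.93 ± 0.3, adjusted p = 0.0019). Igf2bp3, an RNA-binding protein typical of fetal tissues, stood at 0.431, 0.305, 0.256 and 0.331 CPM in the controls and at 13.4, 5.5 and 6.47 CPM in MLL-ENL (x2). This was among the widest separations in the data (log2 fold change 4.65 ± 0.52, adjusted p = 3.4e-05). Igf2bp3 was the only one of 8 tested fetal and neonatal genes that passed (0.266% of all tested genes rose). Lin28b, a fetal regulator of let-7 microRNAs, was at most 0.0615 CPM in controls and 0.284, 0.651 and 0.368 CPM in MLL-ENL (x2) and did not pass (adjusted p = 0.16).

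Ednra, the endothelin receptor type A, stood at 0.554, 1.17, 0.831 and 1.12 CPM in controls against 9.15, 14.5 and 8.67 CPM in MLL-ENL (x2) (log2 fold change 3.54 ± 0.6, adjusted p = 0.0035). Cdk19, a kinase of the Mediator complex, stood at 39.2, 32.7, 27.5 and 27 CPM against 58.6, 61.9 and 83.0 CPM (log2 fold change 1.1 ± 0.17, adjusted p = 0.0016). Lack of overlap was part of the rule that named the largest rises and falls, Ednra and Cdk19 among them. Both of these passed without each animal in turn. Ehd3, an endocytic ATPase that was chosen after its values were seen, did so too, at 0.132 to 0.554 CPM in controls and 3.46 to 6.95 CPM in MLL-ENL (x2) (log2 fold change 3.95 ± 0.45, adjusted p = 3.7e-05). Cd33, a sialic acid receptor of myeloid cells, stood at 2.52, 3.1, 2.94 and 1.85 CPM in controls against 16.7, 4.85 and 5.51 CPM. Library 5293 was far above 5897 and 5900, and the log2 fold change of 1.78 ± 0.33 (adjusted p = 0.0063) was 0.98 without 5293, where it still passed (adjusted p = 0.042).

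Some rises were uneven between the 3 MLL-ENL (x2) animals. Hpgd, which encodes the enzyme that inactivates prostaglandins, was at most 0.703 CPM in the controls and at 103, 5.5 and 2.35 CPM in 5293, 5897 and 5900. Its log2 fold change of 6.25 ± 1.09 (adjusted p = 0.0044) came to 3.03 without 5293 and did not pass there (adjusted p = 0.078). Penk and Zer1, both chosen after their values were seen, were uneven in opposite ways. Penk, which encodes proenkephalin, was at 0.0615 to 0.511 CPM in controls and at 48.9, 4.91 and 2.35 CPM, and it did not pass without 5293 (adjusted p = 0.15). Zer1, which encodes a subunit of a ubiquitin ligase, was at 6.33 to 10.3 CPM in controls and at 9.01, 52.6 and 49.5 CPM, so 5293 lay among the controls. Zer1 had a log2 fold change of 2.14 ± 0.51 (adjusted p = 0.046), which did not pass without any animal other than 5293 (adjusted p up to 0.24). Within animals 5897 to 5900 it was 2.89 (adjusted p = 0.00058).

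Ckm, the creatine kinase of muscle, stood at 0.463 to 1.91 CPM in controls and 4.97 to 9.78 CPM in MLL-ENL (x2), with a log2 fold change of 2.55 ± 0.49 (adjusted p = 0.0099, and 0.088 without 5900). Tyrobp, the signaling adaptor DAP12 of myeloid receptors, stood at 346, 261, 319 and 383 CPM in controls against 578, 524 and 832 CPM. Its groups did not overlap, and the log2 fold change was 0.98 ± 0.2 (adjusted p = 0.015). It did not pass without 4892, 4894 or 5898 (adjusted p = 0.065, 0.1 and 0.067). Nrg4, a ligand of the EGF family, stood at 15.7 to 18.6 CPM against 30.4 to 56.0 CPM (log2 fold change 1.4 ± 0.26, adjusted p = 0.0082, and 0.052 without either 5293 or 5899). Sgip1, an endocytosis factor, stood at 4.55 to 8.53 CPM against 12.3 to 29.7 CPM (log2 fold change 1.62 ± 0.32, adjusted p = 0.014), and did not pass without 5293, 4892 or 4894 (adjusted p = 0.19, 0.095 and 0.1). The X-linked genes Xlr4a and Xlr4b rose by log2 fold changes of 1.08 ± 0.23 and 1.07 ± 0.25 (adjusted p = 0.023 and 0.038). Xlr4a did not pass without 5897, 5900, 4892, 4894 or 5898 (adjusted p from 0.06 to 0.12), nor Xlr4b without any animal other than 5898 (from 0.072 to 0.21). Both share near-identical sequence with other Xlr genes, so the split of their reads is uncertain.

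Clear falls were seen in C1qtnf6, Ppic and Scarf1. C1qtnf6, a secreted protein of the C1q/TNF-related family, stood at 22.6, 29.6, 24.2 and 26.5 CPM in the controls and at 0.284, 0.888 and 0.588 CPM in MLL-ENL (x2). Every MLL-ENL (x2) library was thus near the limit of detection (log2 fold change -5.41 ± 0.37, adjusted p = 1.2e-08). Ppic, the prolyl isomerase cyclophilin C, stood at 67.1, 88.9, 79.5 and 80.3 CPM against 7.45, 7.58 and 8.31 CPM. Its spread within each group was small, and it had the lowest adjusted p of all genes (log2 fold change -3.34 ± 0.19, adjusted p = 5.4e-10). Scarf1, a scavenger receptor, stood at 11.4, 11.5, 18.9 and 15 CPM against 1.7, 2.9 and 2.13 CPM (log2 fold change -2.65 ± 0.27, adjusted p = 8.1e-06). These genes and the membrane protein gene Tmem98 (log2 fold change -2.15 ± 0.27, adjusted p = 0.00015) passed without each animal in turn and within animals 5897 to 5900 alone.

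Cd55, which encodes the complement inhibitor decay-accelerating factor, fell from 2.38 to 6.65 CPM in controls to 0.533 to 1.13 CPM (log2 fold change -2.48 ± 0.37, adjusted p = 0.0012). Ces2g, a carboxylesterase, Ppp1r9a, the actin-binding protein neurabin, and Eps8, an actin regulator, fell by log2 fold changes of -2.49 ± 0.4, -2.48 ± 0.42 and -2.07 ± 0.33 (adjusted p = 0.0019, 0.0035 and 0.0019). All 4 passed without each of the 7 animals in turn.

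Other falls followed the split of the controls. Gzmb, which encodes granzyme B, stood at 144 and 100 CPM in controls 4892 and 4894, at 19.2 and 41.9 CPM in 5898 and 5899, and at 11.3, 10.1 and 3.6 CPM in MLL-ENL (x2). Scin, an actin-severing protein, stood at 59.1 and 40.8 CPM, at 8.95 and 12.9 CPM and at 7.16, 6.33 and 2.94 CPM in the same order. Csrp3, a LIM domain protein, and Il1rl1, the receptor for interleukin-33, showed the same order of the control pairs. In these 4 genes the lower pair of controls lay above the MLL-ENL (x2) libraries by far less than the higher pair did. Their log2 fold changes were -3.19 ± 0.72, -2.47 ± 0.59, -2.42 ± 0.53 and -2.07 ± 0.5 (adjusted p = 0.031, 0.047, 0.025 and 0.047). Within animals 5897 to 5900 they were -2.16, -1.24, -1.98 and -1.3 and none passed (adjusted p from 0.79 to 0.84). None of the 4 passed without 4892, 4894, 5293 or 5897, Gzmb also not without 5899, and Scin, Csrp3 and Il1rl1 also not without 5900 (adjusted p up to 0.17, 0.27, 0.2 and 0.28). The part of the difference between control pairs in these results was not tested beyond these values.

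Among 20 listed genes of stem and multipotent progenitors, 19 were tested, with a median log2 fold change of -0.47. Mecom rose and 4 genes fell, where 0.266% of all tested genes rose and 0.631% fell. Hlf, a transcription factor of stem cells, stood at 15.4, 15.6, 10.1 and 15.1 CPM in controls and at 9.08, 6.75 and 7.35 CPM in MLL-ENL (x2). The groups did not overlap, and the log2 fold change was -0.87 ± 0.18 (adjusted p = 0.018), which did not pass without 5897, 5900, 4892, 4894 or 5899 (adjusted p from 0.05 to 0.13). Robo4, a receptor of stem cells and endothelium, was at 0.595 to 1.32 CPM against 0.0735 to 0.296 CPM (log2 fold change -2.24 ± 0.48, adjusted p = 0.022), and was lost without 5293, 5900, 4892 or 4894 (adjusted p up to 0.14). Hoxb5, another homeodomain factor of stem cells, was at 0.132 to 0.511 CPM in controls and 0 to 0.0735 CPM in MLL-ENL (x2) (adjusted p = 0.024), and was lost without 4892, 4894, 5293, 5897 or 5898 (adjusted p up to 0.21). The number of listed genes that fell was 1 without 4892 or 4894, 2 without 5293, 5897 or 5900 and 3 without 5898 or 5899. Cd34, on the list of sorting antigens, was at 588 to 661 CPM in controls. In MLL-ENL (x2) 5293, 5897 and 5900 it was at 636, 623 and 410 CPM. None of the 10 genes on that list passed.

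In the lists for mast cells and basophils, eosinophils and red cells, 3 of 13, none of 10 and 2 of 18 tested genes fell. None of their genes rose. Over all tested genes, 0.631% fell and 0.266% rose. In bulk samples, fewer cells of a type and less RNA per cell cannot be told apart. For the 13 genes of mast cells and basophils the median log2 fold change was -0.88, and 7 of them were lower without overlap (3.79% of all tested genes were). The summed level of the 16 listed genes was 1845, 1420, 1097 and 1194 CPM in controls 4892, 4894, 5898 and 5899 and 1116, 1022 and 740 CPM in MLL-ENL (x2) 5293, 5897 and 5900, so the groups overlapped. The number that fell was 1 without 4892, 4894 or 5293. Within animals 5897 to 5900 none of these genes passed and the median was -0.49.

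Prss34, a protease of basophils, stood at 215, 216, 107 and 117 CPM in the controls and at 32.6, 23.9 and 12.6 CPM in MLL-ENL (x2). The lower control pair was still far above the highest MLL-ENL (x2) library (log2 fold change -2.83 ± 0.55, adjusted p = 0.01, and 0.08 without 5897). Fcer1a, the alpha chain of the IgE receptor, stood at 14.1, 23.6, 6.14 and 9.13 CPM against 0.993, 1.12 and 0.735 CPM (log2 fold change -3.78 ± 0.83, adjusted p = 0.025). It did not pass without 5293, 5900, 4892, 4894 or 5899 (adjusted p from 0.054 to 0.17). Slc45a3, a membrane transporter, stood at 7.61 to 24.6 CPM against 2.72 to 5.33 CPM (log2 fold change -1.94 ± 0.39, adjusted p = 0.015, lost without 5293, 4892 or 4894 with 0.091, 0.093 and 0.095). The protease gene Mcpt8 and Hdc, which encodes the enzyme that makes histamine, stayed within the range of the controls or near it: Mcpt8 was at 207, 188, 151 and 135 CPM against 171, 145 and 160 CPM (log2 fold change -0.1 ± 0.18, adjusted p = 1).

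Gata1, the factor that directs the red cell, megakaryocyte, mast cell and eosinophil lineages, stood at 36.4, 31.9, 15.9 and 18.8 CPM in the controls and at 12.1, 7.52 and 4.78 CPM in MLL-ENL (x2). The groups did not overlap (log2 fold change -1.67 ± 0.33, adjusted p = 0.013), and the log2 fold change within animals 5897 to 5900 was -1.5 (adjusted p = 0.28). Gata1 was lost without 5897, 5900, 4892 or 4894 (adjusted p = 0.083, 0.061, 0.077 and 0.084). Gfi1b, a transcriptional repressor active in some of the same lineages, stood at 15.5, 11.7, 10.5 and 16.6 CPM against 4.82, 6.51 and 4.63 CPM. It did not follow the split of the controls and passed without each animal in turn (log2 fold change -1.34 ± 0.23, adjusted p = 0.0035). Gata2, which acts before Gata1, was at 83.6, 79.3, 33.9 and 32.9 CPM in the controls and at 28.0, 27.6 and 38.2 CPM, so the groups overlapped (log2 fold change -0.88, adjusted p = 0.17).

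Promoters of Prss34 and Fcer1a are shown because both genes fell together with Gata1 and both hold the letters AGATAA, or TTATCT for the other strand, which belong to the motif that GATA factors bind. Each window is the 250 bases before the gene's start in RefSeq (GRCm38.p6), 5′ to 3′ along the gene's strand, with the match in capitals. The Prss34 window is chr17:25298144-25298393 on the plus strand, with the match at bases -31 to -26 from the start. The Fcer1a window is chr1:173227230-173227479 on the minus strand, with the match at bases -92 to -87.
Prss34: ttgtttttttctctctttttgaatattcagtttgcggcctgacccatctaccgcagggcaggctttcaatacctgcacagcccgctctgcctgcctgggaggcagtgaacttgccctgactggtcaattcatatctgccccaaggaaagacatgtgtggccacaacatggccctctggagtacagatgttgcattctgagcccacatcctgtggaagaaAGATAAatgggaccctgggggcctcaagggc
Fcer1a: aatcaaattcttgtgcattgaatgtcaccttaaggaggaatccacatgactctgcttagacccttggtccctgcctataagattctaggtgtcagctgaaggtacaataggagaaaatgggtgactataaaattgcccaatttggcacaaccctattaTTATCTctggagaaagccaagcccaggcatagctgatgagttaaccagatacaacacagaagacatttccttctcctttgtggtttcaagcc
Of the 10425 tested genes with such a window, 779 (7.47%) held either string, against 3 of 30 genes that rose and 6 of 66 that fell. Windows were found for 5 of the 6 called genes of the erythroid, megakaryocyte and mast cell and basophil lists, and 2 of those 5 held it. A match is a description of these letters and not a binding site.

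Of 18 erythroid genes, 2 fell and none rose, and the median log2 fold change was -2.45, or -2.27 with genes at 0 in 1 group set at their bound. Besides Gata1 this was Car2, a carbonic anhydrase, at 155, 134, 94.2 and 89.4 CPM in the controls and 42.2, 31.9 and 43.2 CPM in MLL-ENL (x2). No library of the groups overlapped (log2 fold change -1.6 ± 0.25, adjusted p = 0.0016), and Car2 passed without each animal in turn. The globin gene Hbb-bs was at 1.72, 12.6, 1.09 and 6.28 CPM in controls and at 0.355 to 0.78 CPM in MLL-ENL (x2) and did not pass (adjusted p = 0.37). The summed level of the list was 352, 345, 204 and 233 CPM in the controls and 191, 174 and 161 CPM in MLL-ENL (x2). Without 4892, 4894, 5897 or 5900 Car2 alone fell, and within animals 5897 to 5900 no gene of the list passed and its median was -1.15. Of 14 megakaryocyte genes only Pf4, platelet factor 4, passed, and it fell (0.631% of all tested genes did). It was at 1.17 to 1.98 CPM against 0.178 to 0.355 CPM (log2 fold change -2.51 ± 0.48, adjusted p = 0.0099, and 0.052 without 5293 and 0.081 without 5897).

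The eosinophil genes showed a wide separation in level without passing the test. Their summed level was 641, 1398, 1105 and 1203 CPM in controls 4892, 4894, 5898 and 5899 and 280, 222 and 260 CPM in MLL-ENL (x2). Here the controls did not divide as for Gzmb, and 4892 was the lowest of them. Prg2, the major basic protein of eosinophil granules, stood at 447, 1015, 782 and 852 CPM against 150, 116 and 148 CPM (log2 fold change -2.49 ± 0.62, adjusted p = 0.068). Epx, eosinophil peroxidase, stood at 109, 267, 237 and 268 CPM against 64.7, 54.3 and 42.4 CPM (log2 fold change -2.03, adjusted p = 0.6), a gene outside the rule for naming. Ear2, an eosinophil ribonuclease with near-identical copies, was at 2.18 to 7.27 CPM against 0.0592 to 0.567 CPM (log2 fold change -3.75 ± 0.95, adjusted p = 0.08). None of the 10 genes passed and 5 of them were lower without overlap (3.79% of all tested genes were). The list median was -1.85. In a fit of the 7 GMP libraries alone 5 of the 9 tested members fell, and with DESeq2 3 of 10 did. Without 4892, the library with the lowest sum among controls, 2 of the 10 fell.

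**Figure D3:**
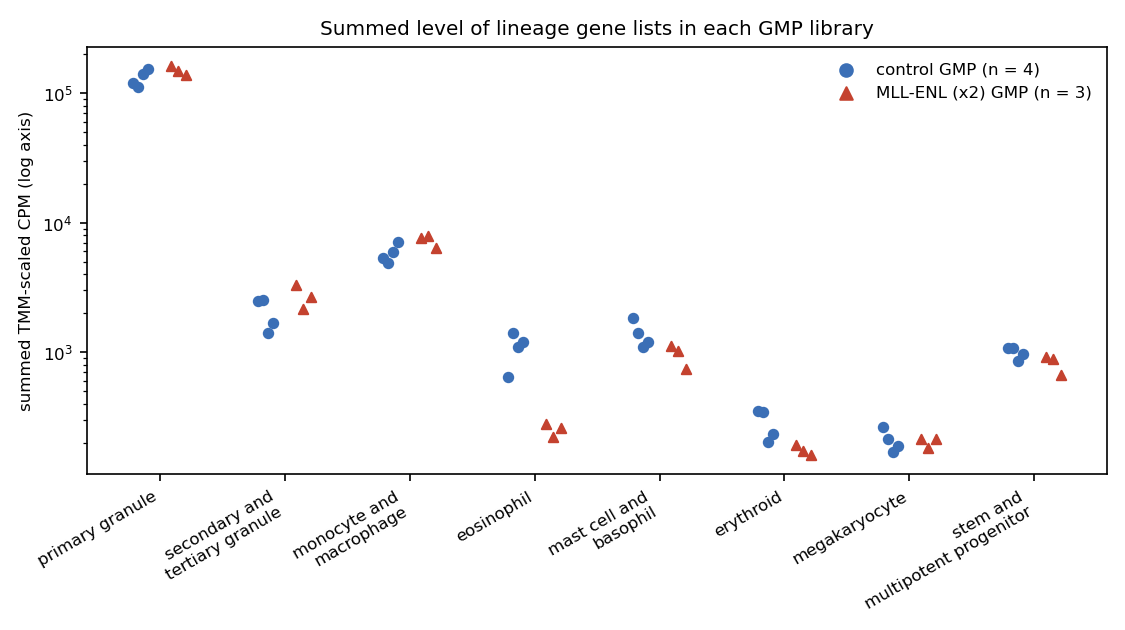
Summed level of 8 of the 27 gene lists, those of lineages and stem cells (y axis, TMM-scaled CPM, log axis) in each GMP library, with blue circles for the 4 controls (4892, 4894, 5898, 5899) and red triangles for the 3 MLL-ENL (x2) animals (5293, 5897, 5900). The eosinophil sums are 641 to 1398 CPM in controls and 222 to 280 CPM in MLL-ENL (x2), and the erythroid sums 204 to 352 and 161 to 191 CPM; the groups overlap in the other 6 lists drawn.

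The granulocyte and monocyte lists held few called genes, but few were called among all tested genes as well (0.898%). The counts below thus do not show that these programs were spared. None of 18 primary granule genes passed, with a median log2 fold change of 0.14. Mpo, myeloperoxidase, was at 57974, 51844, 66765 and 75589 CPM in the controls and at 79554, 76071 and 44333 CPM in MLL-ENL (x2), so library 5900 was the lowest of all and 5293 the highest. Clec12a, an inhibitory receptor of myeloid cells, was at 694, 594, 770 and 963 CPM against 1087, 1076 and 1227 CPM, without overlap, and did not pass (log2 fold change 0.58 ± 0.21, adjusted p = 0.35). Fcnb, ficolin B, was at 40.5 to 104 CPM against 124 to 186 CPM (log2 fold change 1.29 ± 0.74, adjusted p = 0.89).

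Of 20 genes of secondary and tertiary granules 1 rose (0.266% of all tested genes did). It was Padi4, the enzyme that citrullinates histones, at 13.7, 25.6, 22.8 and 24.7 CPM against 45, 50.7 and 31.4 CPM (log2 fold change 0.97 ± 0.21, adjusted p = 0.022). It was lost without any animal other than 5900 (adjusted p from 0.054 to 0.2). Chil3, a chitinase-like protein chosen after its values were seen, was at 1211 CPM in 5293 and at 6.01 to 71.8 CPM in the other 6 libraries. Of 21 monocyte and macrophage genes 1 fell (0.631% of all tested genes did). Cd14, the receptor for lipopolysaccharide complexes, was at 38.0, 48.8, 59.5 and 63.8 CPM against 18.3, 14.1 and 16.9 CPM (log2 fold change -1.68 ± 0.29, adjusted p = 0.0035), and it passed without each animal in turn. The MHC class II gene H2-Ab1 fell from at most 27.9 CPM in controls to 8.75 to 10.2 CPM, without overlap (log2 fold change -1.28 ± 0.28, adjusted p = 0.025), but was lost without 5293, 5897, 4892, 4894 or 5899 (adjusted p from 0.053 to 0.12), and it was the only one of 10 class II genes that passed.

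Of 23 myeloid transcription factor genes only Gfi1b and Gata1 passed, both downward (0.631% of all tested genes fell). The list's median was 0.0. Library 5900 stood apart in several factors, which were chosen after their values were seen. Gfi1, the neutrophil counterpart of Gfi1b, was at 104 CPM in 5900 and at 25.2 to 33.4 CPM in the other 6 libraries. Cebpa, the factor that GMP formation requires, was at 120 CPM in 5900 and at 32.5 to 55.1 CPM in the others. None of 18 myeloid cytokine receptor genes passed (0.898% of all tested genes did). Tgfbr1 had the smallest p among them, at 9.33 to 14.7 CPM against 16.1 to 22.1 CPM (log2 fold change 0.66 ± 0.24, adjusted p = 0.38), and Kit was at 453, 416 and 157 CPM in 5293, 5897 and 5900 with controls at 238 to 375 CPM.

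**Figure D4:**
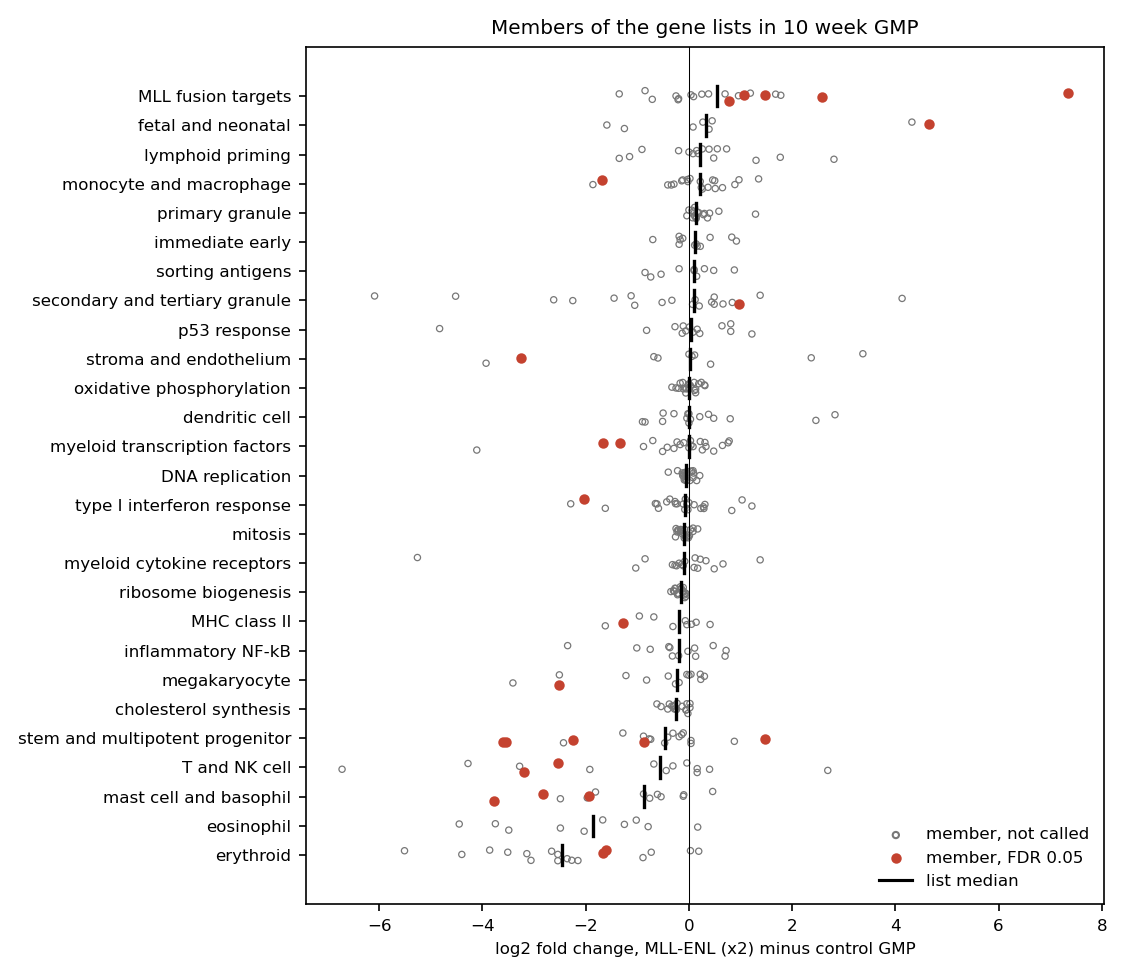
Each point is 1 tested member of a gene list (y axis) at its log2 fold change, MLL-ENL (x2) minus control (x axis); filled red points passed an adjusted p of 0.05 and black bars are list medians. The MLL fusion targets lie furthest right with a median of 0.54, and the eosinophil and erythroid lists furthest left with medians of -1.85 and -2.45.

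No gene of the growth and cell cycle lists passed, where 0.898% of all tested genes did. At that share, lists this short can lack a call without differing from other genes. In mitosis (20 tested), DNA replication (22), oxidative phosphorylation (22) and cholesterol synthesis (18) no gene passed, and the medians were -0.09, -0.06, 0.0 and -0.25. All 20 genes of ribosome biogenesis had negative values, from -0.35 to -0.06, with a median of -0.15, but none passed. Their sum was 7417, 8043, 7904 and 7716 CPM in controls 4892, 4894, 5898 and 5899 and 6987, 7337 and 5894 CPM in MLL-ENL (x2) 5293, 5897 and 5900. All 3 MLL-ENL (x2) sums thus lay below the controls, with 5900 the lowest, and the median was -0.11 without 5900. No p53 response, immediate early, NF-kB, dendritic cell or lymphoid priming gene passed, out of 14, 12, 13, 16 and 16 tested. The same limit holds for these lists. Cdkn1a, the cell cycle inhibitor p21, was at 18.2 to 23.6 CPM in controls and at 26.2, 26.5 and 48.3 CPM in MLL-ENL (x2) (log2 fold change 0.64 ± 0.21, adjusted p = 0.26). Rag2, a recombinase subunit of lymphocytes, was at 1.66 to 3.7 CPM against 5.51 to 7.94 CPM (log2 fold change 1.3 ± 0.41, adjusted p = 0.23).

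Of 25 interferon response genes 1 fell, where 0.631% of all tested genes did. Ifitm1, a membrane protein also found on early progenitors, was at 189, 275, 103 and 116 CPM in the controls and at 41.1, 32.4 and 52.0 CPM in MLL-ENL (x2). It passed without each animal in turn (log2 fold change -2.03 ± 0.31, adjusted p = 0.0016), and the median of its list was -0.08. Without 5293, 2 genes of the list fell, without 5900, 2 fell and 1 rose, and with DESeq2, 3 fell and 1 rose. Of 14 T and NK cell genes, Gzmb and Cd4 fell (0.631% of all tested genes did). Cd4 was at 1.6 to 2.69 CPM against 0.221 to 0.592 CPM (log2 fold change -2.53 ± 0.5, adjusted p = 0.013, and 0.11 without 5293 and 0.06 without 4894). Of 10 stroma and endothelium genes 1 fell (0.631% of all tested genes did). This was the sialomucin gene Emcn, at 1.06 to 4.06 CPM against 0 to 0.496 CPM (log2 fold change -3.26 ± 0.6, adjusted p = 0.0065, and 0.055 without 5897 and 0.061 without 5900).

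The next question was whether the genes changed in GMP behaved alike in the other progenitors of the same 7 animals. Those comparisons use the same mice, so they are not independent of the GMP result. In all, 142 genes passed in HPC (0.996%) and 119 in pGM (0.835%). Of the 38 genes that rose in GMP, 15 also rose in HPC, where 81 of all tested genes did (0.568%), and 18 in pGM, where 57 did (0.4%). Of the 90 that fell, 17 also fell in HPC, where 61 did (0.428%), and 31 in pGM, where 62 did (0.435%). Gfi1b alone went the other way and rose in HPC.

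The difference between the effects in GMP and HPC was tested directly and passed for 14 genes (0.0982%), 3 higher in GMP (0.021%) and 11 lower (0.0771%). With the animal as a block 45 genes passed, 16 higher and 29 lower. The count was 5 without 4892, 6 without 4894, 8 without 5897, and 9 without either 5293 or 5899. Tifab, an adaptor of innate signaling, had the lowest p. It was at 18.8 to 30.6 CPM in control HPC and at 218, 383 and 334 CPM in MLL-ENL (x2) HPC of 5293, 5897 and 5900, but in GMP at 393 to 650 CPM in controls and at 797, 826 and 511 CPM in MLL-ENL (x2). The log2 fold change was thus 3.67 in HPC and 0.5 ± 0.21 in GMP, and the difference of effects was -3.17 ± 0.31 (adjusted p = 1.9e-05). Gfi1b was at 36.5 to 49.4 CPM in control HPC and rose to 116, 132 and 97 CPM in MLL-ENL (x2) HPC, the reverse of its fall in GMP (difference -2.85 ± 0.31, adjusted p = 3.8e-05). Ppic fell in both populations, by -1.15 in HPC and -3.34 in GMP on the log2 scale (difference -2.19 ± 0.24, adjusted p = 3.8e-05). These 3 differences passed without each of the 7 animals in turn.

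Other differences between GMP and HPC were less firm when animals were left out. Cd55 had log2 fold changes of 0.68 in HPC and -2.48 in GMP (difference -3.16 ± 0.48, adjusted p = 0.0039), which did not pass without 4892 or 5900 (adjusted p up to 0.063). G0s2, an inhibitor of lipolysis, was at 0.604 to 3.09 CPM in control HPC and at 0 to 0.0925 CPM in MLL-ENL (x2) HPC, but at 7.14 to 13.2 CPM in control GMP and at 9.77 to 18.3 CPM in MLL-ENL (x2) GMP. Its difference of 5.61 ± 0.86 (adjusted p = 0.0039) was lost without 5900 (0.087). Tmprss3 and Rftn2 fell in HPC but did not pass in GMP, with differences of 2.11 ± 0.36 and 1.52 ± 0.28 (adjusted p = 0.015 and 0.032). Tmprss3 was lost without any animal but 5293 or 5900 and Rftn2 without any but 5900 (adjusted p up to 0.16 and 0.31). With the animal as a block, Cd55, G0s2, Tmprss3 and Rftn2 passed (adjusted p = 0.0037, 0.0057, 0.0038 and 0.027). That fit was not repeated with animals left out.

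Against pGM the effect in GMP differed for 1 gene (0.00701%), with 408 genes at an unadjusted p under 0.05, and for 6 genes with the animal as a block, 1 higher and 5 lower. That gene was Mcpt8, the basophil protease that did not change in GMP. In pGM it was at 59.8 to 70.6 CPM in controls and at 220, 213 and 233 CPM in MLL-ENL (x2), a difference of effects of -1.89 ± 0.26 (adjusted p = 0.0039). It did not pass without 4894, 5293 or 5897 (adjusted p up to 0.088), and it passed with the animal as a block (adjusted p = 0.00053).

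**Figure D5:**
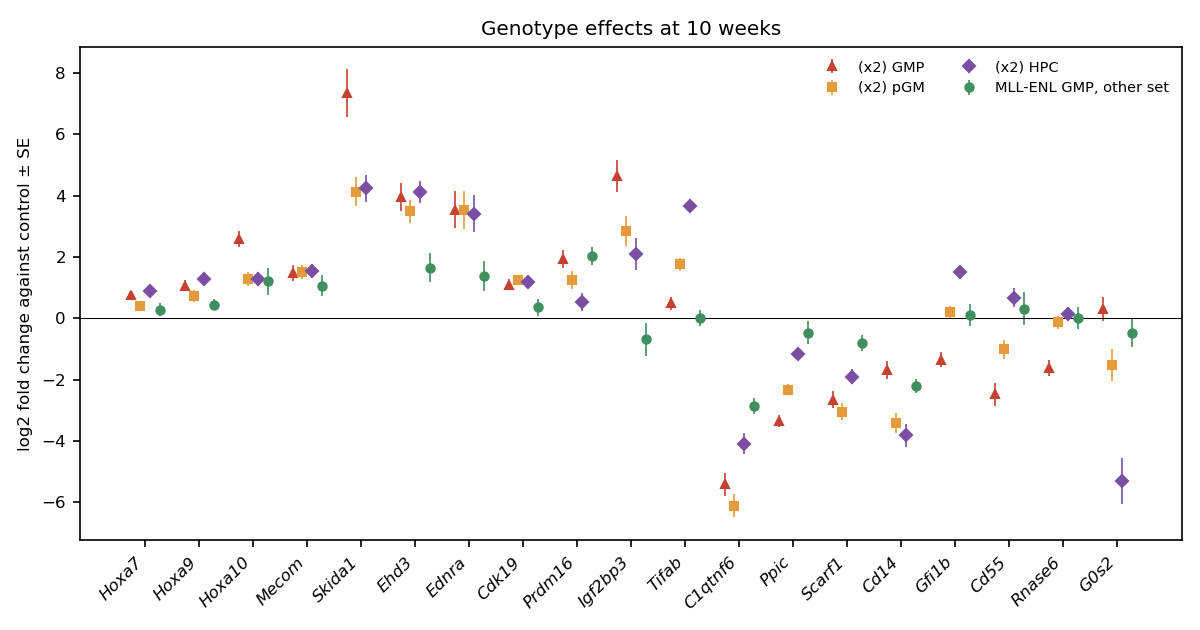
Log2 fold change against control with its SE (y axis) for named genes (x axis) in 4 comparisons: MLL-ENL (x2) in GMP, pGM and HPC of the same animals, and MLL-ENL in GMP of the other set. Tifab lies at 0.5 in GMP and 3.67 in HPC, and Gfi1b at -1.34 and 1.51; the value of Skida1 in GMP is a fitted value against controls at 0 and not a bound, and Skida1 has no value in the other set, where it did not pass the filter.

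Finally, the same genes were examined in GMP of MLL-ENL mice of the other set, which share no library with this comparison. There 4 of 12580 genes passed (0.0318%), with 262 at an unadjusted p under 0.05, and all 4 were among the 128. The count was 2 without control 76, 87 or 88 of that set. Of the genes that rose in MLL-ENL (x2) GMP, 28 of the 35 tested had a positive value there (45.7% of all genes did), and Prdm16 and Sva passed (0.0159% of all genes rose). Of the genes that fell, 60 of 85 had a negative value (54.3% of all genes did), and C1qtnf6 and Cd14 passed (0.0159% of all genes fell). The median log2 fold change of the risen genes was 0.57 there against 2.14 in MLL-ENL (x2), and that of the fallen genes -0.26 against -1.67, over the genes tested in both. The list medians there were 0.76 for eosinophils, 0.27 for mast cells and basophils and 0.04 for red cells. In MLL-ENL (x2) they were -1.85, -0.88 and -2.45, so these lists did not fall as a group in the other set. Prg2, Fcer1a and Prss34 had positive values there (1.06, 0.81 and 0.78), and Gata1 and Car2 negative ones (-0.24 and -0.59). None of these genes passed there, and neither did their differences of effects.

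In TMM-scaled CPM of this fit of 15 libraries, Prdm16 was at 3.32 to 4.52 CPM in the other set's controls and at 22.9, 18.9, 8.31 and 16.9 CPM in its MLL-ENL animals (log2 fold change 2.03 ± 0.3, adjusted p = 0.0096). Its fold change was close to that in MLL-ENL (x2). C1qtnf6 was at 21.8 to 27.2 CPM in controls and at 3.36, 4.68, 1.58 and 4.04 CPM in MLL-ENL (log2 fold change -2.86 ± 0.27, adjusted p = 5.2e-05). Its 4 MLL-ENL values lay above the 0.237 to 0.756 CPM of the MLL-ENL (x2) libraries in the same fit. The test of the difference of effects did not pass (-2.55 ± 0.44, adjusted p = 0.1). Cd14 was at 43.1 to 67.3 CPM in controls and at 7.52 to 14.5 CPM in MLL-ENL (log2 fold change -2.19 ± 0.23, adjusted p = 0.00014). Sva, a secreted protein of glands, had 1 count in controls 4892 to 5899 and 71 counts in the 3 MLL-ENL (x2) libraries, and was at 0 to 0.156 CPM in the other controls and 1.07 to 2.37 CPM in MLL-ENL (adjusted p = 0.024).

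The MLL-ENL (x2) effect differed from the MLL-ENL effect for 1 gene, Igf2bp3 (0.00795% of 12580), with 412 genes at an unadjusted p under 0.05. It was at 0.271 to 0.623 CPM in the other set's controls and at 0.0841 to 0.395 CPM in its MLL-ENL animals, against 4.69 to 11.2 CPM in the MLL-ENL (x2) libraries. The difference of effects was 5.31 ± 0.69 (adjusted p = 0.0053), and it passed without each library in turn (adjusted p at most 0.039). Hoxa10 had log2 fold changes of 1.21 ± 0.43 in MLL-ENL and 2.58 in MLL-ENL (x2), Hoxa9 of 0.44 ± 0.18 and 1.07, and Mecom of 1.07 ± 0.34 and 1.48. None of the 3 passed in MLL-ENL (adjusted p = 1), and neither did their differences (adjusted p = 1), so a smaller effect in MLL-ENL was not shown for them. The sets hold different animals, so the set and the genotype label cannot be told apart beyond the use of each set's own controls.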

How the data were processed

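The deposited table holds raw counts per gene for 84 libraries, made by the authors with STAR (3.0.4), Subread and featureCounts (1.4.5) per the submitters' processing notes. No source used here gives the build, the annotation or whether strand was used. RNA was isolated with a Qiagen micro kit and amplified with a Clontech kit per the labels' protocols. The table has 41391 lines, of which 41388 are mouse genes and 3 the human transgene. The fusion line equals KMT2A plus MLLT1 in all 84 libraries, and the transgene was kept out of library sizes and tests.

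Groups came from the titles. All 21 HPC, pGM and GMP libraries of these 7 animals were fitted together with edgeR 4.0.16 (R 4.3.3, limma 3.58.1), with filterByExpr, TMM scaling, 6 groups and the quasi-likelihood F test, and p-values were adjusted by Benjamini-Hochberg over all 14260 genes. The comparison with the other set used 15 GMP libraries and 12580 genes. SE is the log2 fold change divided by the root of F. Tables were made in Python 3.11.15 with numpy 2.4.6 and pandas 2.3.3, the exact test with scipy 1.17.1 and figures with matplotlib 3.10.9. On simulated data of the main comparison, 55% of 100 genes changed 2-fold and 94% of 100 changed 4-fold were recovered. In the same data 10 unchanged genes were called. The changed genes were drawn from those with an average log2 CPM above 1, and all libraries were simulated as independent. These rates thus do not cover genes at lower levels or libraries that share an animal.

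The members and gene lists were chosen with earlier results of these data known. The genes named were Kmt2a, Mllt1, the Hoxa genes, Meis1, Mecom, Skida1, Xist and Ddx3y. To these were added the 15 largest rises and 15 largest falls past an adjusted p of 0.05, with a mean log2 CPM (prior count 2) of at least 1, no overlap and no predicted gene model. Each list gave up to 4 called members, or 2 where none passed, and each difference of effects up to 5 each way. Elane, Ly6a, Mpo, Cd34, Gata2, Hdc, Hbb-bs, Epx, Kit, Clnk, Runx2, Cdk6, Jmjd1c, Mef2c, Bcl2, Flt3 and Myb were named outside this rule, after their values were seen, as were others where the text says so. A few genes that the rule names are not reported here.

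Alternatives were RLE scaling, no filter, DESeq2 1.42.0, GMP libraries alone, pooled controls, the animal as a block and leaving out each animal. Sex as a covariate and animals 5897 to 5900 alone were added after seeing the data. HPC, pGM and GMP of 1 number were taken as 1 animal from the titles, and their deviations from group means correlated at 0.15 to 0.26 (GMP and HPC) and 0.16 to 0.41 (GMP and pGM). Promoter windows came from RefSeq (GRCm38.p6).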

Additional observations from a re-analysis of the deposited data

Results flagged for a closer look

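Among the 4 control GMP libraries, 1 library lay far from the other 3 in 5 of the 120 values examined. Chance gives about 1 in 20, and the share seen was not above that. Ddx3y stood at 77.5 CPM in the male control 4892 and at 0.0661 to 0.256 CPM in the others. Il9r, an interleukin receptor subunit, stood at 0.984 CPM in 4892 and at 0 to 0.0661 CPM in the others. In control 5898, Hlf was low at 10.1 CPM against 15.1 to 15.6 CPM, and Cdc20, an activator of mitotic exit, was high at 63.0 CPM against 51.5 to 52.9 CPM. Sva had 0.0661 CPM in 5899, from 1 count, and 0 in the others.

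The effect of MLL-ENL (x2) differed between GMP and HPC, by a test of the difference itself, for Tifab (-3.17 on the log2 scale), Gfi1b (-2.85), Ppic (-2.19), Cd55 (-3.16), G0s2 (5.61), Tmprss3 (2.11) and Rftn2 (1.52). Between GMP and pGM it differed for Mcpt8 (-1.89). Negative values mean a lower effect in GMP.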

How the results depend on the processing

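No call of the 128 reversed under any alternative run. The 128 calls in GMP became 214 with DESeq2 (60 higher, 154 lower, 125 shared with the 128), 44 with GMP libraries alone (33 shared), 11 within animals 5897 to 5900, and 55 to 113 when 1 animal was left out. RLE scaling gave 129, no filter 155 and pooled controls 95. The 14 differences between GMP and HPC became 33 with no filter, 55 with DESeq2, 45 with the animal as a block, 2 within animals 5897 to 5900, and 5 to 13 with 1 animal left out. The 1 difference between GMP and pGM became 3 with no filter, 16 with DESeq2, 6 with the animal as a block, 0 within animals 5897 to 5900, and 0 to 1 with 1 animal left out. No block could be fitted to the GMP comparison itself, since each animal has 1 genotype. HPC gave 142 calls, 275 with DESeq2, 37 within animals 5897 to 5900 and 72 to 161 with 1 animal left out. pGM gave 119, 256, 24 and 70 to 116 in the same order. The 1 difference from MLL-ENL became 11 with no filter, 7 with DESeq2 and 1 to 2 with 1 animal left out, and the 4 calls in MLL-ENL GMP became 2 to 4. The transgene difference of 6.78 CPM ranged from 4.54 (without 5900) to 8.0, and that from MLL-ENL, 5.11 CPM, from 2.86 (without 5900) to 6.32. The causes were not tested. For single named genes, 1127 of 1327 values kept their call, 191 lost it, 9 gained one and 0 reversed.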

Other observations

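Several further genes that passed without each of the 7 animals in turn were chosen after their values were seen. Krt18, a keratin of the intermediate filaments, stood at 46.5, 48.5, 42.6 and 45.3 CPM in controls 4892, 4894, 5898 and 5899 and at 25.9, 21.3 and 19.7 CPM in MLL-ENL (x2) 5293, 5897 and 5900 (log2 fold change -1.04 ± 0.18, adjusted p = 0.0047 by edgeR). Cavin1, a coat protein of caveolae, stood at 49.1, 43.2, 32.6 and 35.3 CPM against 15.5, 14.4 and 10.1 CPM (log2 fold change -1.58 ± 0.28, adjusted p = 0.0047). In both genes the groups were well separated, and the difference between the control pairs was smaller than that between the genotypes. Camk2d, a calcium-dependent kinase, stood at 3.31 to 7.98 CPM against 1.84 to 2.19 CPM (log2 fold change -1.49 ± 0.24, adjusted p = 0.0019). Myo18b, a myosin of muscle, rose from 0.132 to 0.575 CPM in controls to 7.09, 5.33 and 3.53 CPM (log2 fold change 3.91 ± 0.68, adjusted p = 0.0042).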
